A study of Mus musculus with 4 samples.

Results

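The miR-290 cluster is a group of microRNA hairpins on mouse chromosome 7, represented here by Mir291a, Mir293, Mir294 and Mir295, together with every peak of a merged peak list that lay within 50 kb of any of these 4 genes. The rule found all 4 genes in the GENCODE M21 annotation and 17 peaks of the 26496 in the list, numbered here 1 to 17 along the chromosome. The peaks come from ALaP-seq, which labels chromatin near PML bodies. The peroxidase APEX, fused to the PML protein, puts biotin on its surroundings once hydrogen peroxide is added. The DNA recovered with the biotin-bearing material is sequenced. The study used E14 mouse embryonic stem cells with the APEX-PML knockin, in 2 groups that share this genotype and culture with leukemia inhibitory factor, CHIR99021 and PD0325901: 2 samples given hydrogen peroxide (H2O2+) and 2 without it (H2O2-), the negative control. The list holds positions only, with replicates merged according to its name and no sample named, so the depth behind each peak is unknown. From this list, no value per sample, spread between replicates or comparison with the controls could be computed. Every count here describes this 1 list without a test.

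The miR-290 cluster yields the most abundant microRNAs of mouse embryonic stem cells. It is transcribed as 1 primary transcript, from which the hairpins are cut and then processed into short mature strands that lead Argonaute proteins to messenger RNAs, mainly through the seed at bases 2 to 8. Its microRNAs are known for repressing inhibitors of the passage from G1 to S phase, and the locus is known as a stem cell super-enhancer bound by Oct4, Sox2 and Nanog. PML bodies are nuclear structures built on the PML protein that lie next to particular stretches of chromatin.

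The mature strands of the 4 genes are shown because their seeds are compared next, with the seed in capitals (RefSeq, GRCm38.p6). The 3p strands come first and the 5p strands after them.
miR-291a-3p: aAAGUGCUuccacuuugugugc
miR-294-3p: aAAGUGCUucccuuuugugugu
miR-295-3p: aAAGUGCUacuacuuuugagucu
miR-293-3p: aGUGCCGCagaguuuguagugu
miR-291a-5p: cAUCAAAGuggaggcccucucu
miR-293-5p: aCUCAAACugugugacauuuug
miR-294-5p: aCUCAAAAuggaggcccuaucu
miR-295-5p: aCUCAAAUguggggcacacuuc

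The 3p strands of Mir291a, Mir294 and Mir295 shared the seed AAGUGCU. Among the 1679 mature names of the RefSeq table, which is not complete, 5 had this seed, the other 2 being miR-302b-3p and miR-302d-3p of the Mir302 locus on chromosome 3. The miR-293-3p strand had the seed GUGCCGC, which no other of its entries shared. Its 5p strand had CUCAAAC, as did miR-290a-5p and miR-292a-5p.

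GENCODE M21 places 9 microRNA genes in the cluster, on mm10 chromosome 7 from 3218626 to 3220841, a span of 2216 bp. On the plus strand these are Mir290a, Mir291a, Mir292, Mir291b, Mir293, Mir294 and Mir295, and on the minus strand Mir290b and Mir292b, whose models lie within those of Mir290a and Mir292. Distances are given from the start of Mir290a, with negative values upstream. The other genes within 50 kb are AU018091, a protein-coding gene whose start is 49.4 kb upstream, Nlrp12, which encodes a NOD-like receptor that regulates inflammation and starts 31.1 kb downstream on the minus strand, and the pseudogenes Gm3375 and Gm20553.

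The peaks formed a dense run that ended just past the last hairpin. Of the 17 peaks, 15 (peaks 2 to 16) lay in 1 stretch of 29.7 kb, from 3193081 to 3222744, with neighbours 332 to 6696 bp apart (median 650.5 bp). Within this stretch the peaks covered 6897 bp (23.3%), and over the whole window of 101923 bp they covered 7312 bp (7.17%), 25.3 times the share of the ungapped genome that all peaks cover (0.284%). Peak 1 stood 23.9 kb before the run, and peak 17 stood 44.7 kb after it. By distance, 11 peaks ended upstream of Mir290a, 3 touched the span of the hairpins and 3 began after Mir295.

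**Figure D1:**
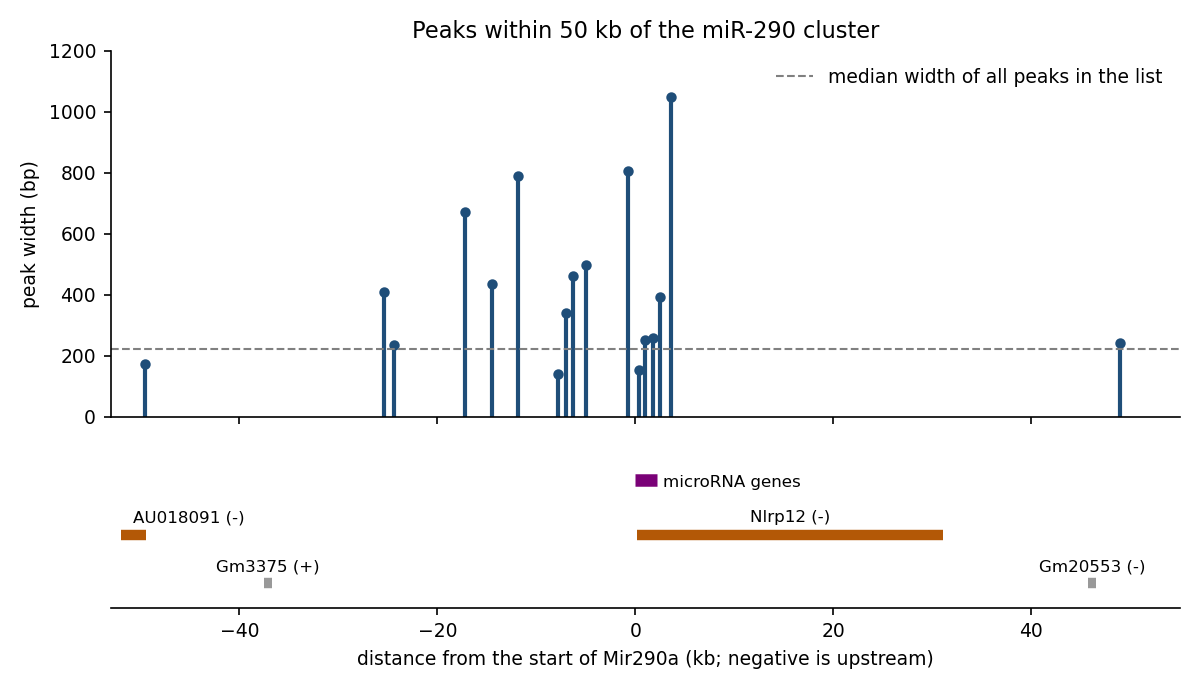
Width in bp of each of the 17 peaks (points, upper panel) against its midpoint's distance from the start of Mir290a in kb, with gene models and their strands in the lower panel; the dashed line is the median width of all 26496 peaks. The 15 peaks of the run lie from 25.3 kb upstream to 3.6 kb downstream, and no peak lies between them and peak 17 at 48.9 kb.

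The run had few equals in the list. When all peaks were joined across gaps of up to 10 kb, they made 16161 runs, of which 26 held 15 or more peaks (0.161%). The run at the miR-290 cluster held no start of a protein-coding gene and no peak whose centre had a near-identical copy elsewhere, while 17 of the 26 included at least 1 peak with such a copy. No protein-coding start lay in 9 of the 26, and the run at the miR-290 cluster was the 1 with neither start nor copy. The cut at 15 peaks is the cluster's own number, and runs with fewer peaks were not examined for these features. The shares of all 16161 runs with a start or a copy were not computed, so these counts do not set the run apart. Of all single peaks in the list, 5.94% had such a copy. Others of the 26 lay over Prl2c3, histone genes, zinc finger genes, Irf2bpl and Glo1.

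The wide peaks of the locus lay at the flanks of the hairpins and upstream. Peak 16, at 3221697 to 3222744, was 1048 bp wide, a width that 0.736% of all peaks reached, and began 856 bp after the end of Mir295. Peak 11, at 3217474 to 3218280, was 807 bp wide and ended 346 bp before Mir290a, in the sequence directly upstream of the first hairpin. Peak 6 (3206379 to 3207169) was 791 bp wide and lay 11.9 kb upstream, and peak 4 (3201079 to 3201748) was 670 bp wide and lay 17.2 kb upstream. Both were outside every gene model of the annotation. The median width over the 17 peaks was 394 bp, against 223 bp over the list, and 14 of the 17 were wider than that. The narrowest were peak 7 (141 bp), peak 12 (154 bp) and peak 1 (174 bp).

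Hairpins and peaks interleaved within the cluster. Mir291a, at 3218919 to 3219000, had 75 of its 82 bases inside peak 12 (3218926 to 3219079). Mir293, at 3220343 to 3220422, lay whole inside peak 14 (3220282 to 3220538), which was 257 bp wide. Mir294, at 3220641 to 3220724, lay in the gap after that peak, 103 bp from it. Mir295, at 3220773 to 3220841, lay in the same gap, 73 bp before peak 15 (3220914 to 3221307). Thus 2 of the 4 genes shared bases with a peak, and of the other 5 genes of the cluster only Mir291b did, with 76 of its 79 bases in peak 13. Over all 2202 microRNA genes of the annotation, 67 (3.04%) shared at least 1 bp with a peak. Mir290a was 218 bp and Mir292 110 bp from the nearest one, peak 12 in both cases.

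**Figure D2:**
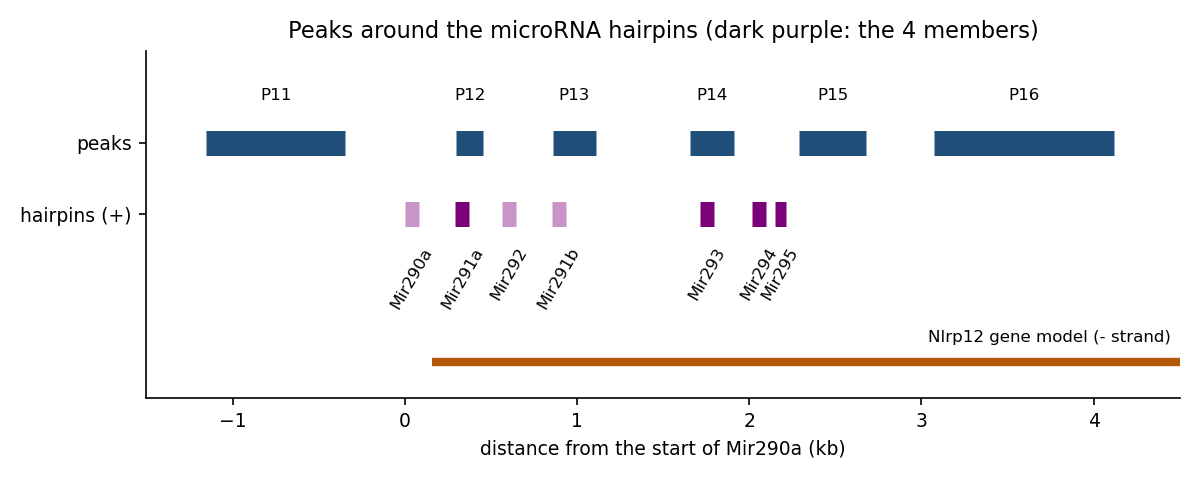
Positions of peaks 11 to 16 (blue) and of the plus-strand hairpins (purple, the 4 listed genes dark) by distance from the start of Mir290a in kb, with the Nlrp12 model below. Mir291a, Mir291b and Mir293 fall in peaks, while Mir290a, Mir292, Mir294 and Mir295 fall in gaps between them.

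Peaks 12 to 16 also fell on Nlrp12, whose minus-strand model ends inside the cluster. Its terminal exon in M21 runs from 3218784 to 3222560 and its untranslated part from 3218784 to 3222475, so peaks 12 to 15 lay within that exon and peak 16 ran past it into the intron. The peak list has no strand, so hairpins and Nlrp12 exon cannot be told apart as the annotation of these peaks. Nlrp12 had no peak within 1 kb of its start, and the nearest peak was 17693 bp from it. AU018091 had peak 1 at its start. Over all 21938 protein-coding genes, 38.4% had a peak within 1 kb of the start.

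Peak 1 was also the edge of the window and of the chromosome's peaks. It lay 49712 bp from the nearest of the 4 genes, just inside the limit of 50 kb. It was the first peak listed on chromosome 7, whose known sequence begins at 3000001, so the list is empty upstream of it. Because Mir291a is the most upstream of the 4 genes, it counted all 17 peaks within 50 kb and Mir293, Mir294 and Mir295 counted 16 each. On the other side, peak 17 was 46592 bp away and the first peak outside the window was 68217 bp away, at the start of Myadm, a gene for a membrane protein of the myeloid lineage.

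The gaps of the run were richer in repeats than its peaks, although not all gaps were. Reads had been mapped to a repeat-masked genome, and the kind of mask is not stated. In the RefSeq genome, whose mask may differ from the one the authors used, 22.8% of the bases in the run's peaks and 40.2% of the bases between them were masked. Masked bases made up 55.6% of peak 5 and 56.8% of peak 8. The gap before peak 5 was 65.9% masked and the gap before peak 6 was 48.6% masked. The gap between peaks 12 and 13, which holds Mir292, and the gap between peaks 14 and 15, which holds Mir294 and Mir295, had no masked base. In the stretch of 44.7 kb without peaks after the run, 43.5% of bases were masked, close to the 42.8% of the whole window. The part of masking in the placement of the peaks was not tested.

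In base composition most of the 17 peaks were below the list's medians of GC content and of CpG ratio. Their median GC content was 48.5% (43.6 to 56.8%), and the list had a median of 55.8% with quartiles of 49.4 and 64.1%. Of the 17 peaks, 15 were below the list's median, and 14 were below the median of 52% of the 17700 peaks over 1 kb from any protein-coding start. The median ratio of observed to expected CpG was 0.174, against 0.379 in the list, whose quartiles were 0.165 and 0.755, and 0.229 in the peaks far from starts. Of the 17 peaks, 14 were below the first of these medians and 10 below the second. The hairpin peaks 12, 13 and 14 had ratios of 0.406, 0.474 and 0.326, peak 8 had 0.429 and peak 11 had 0.374, while peak 15, next to Mir295, had the lowest ratio at 0.0533. No peak reached the upper quartile of the list.

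**Figure D3:**
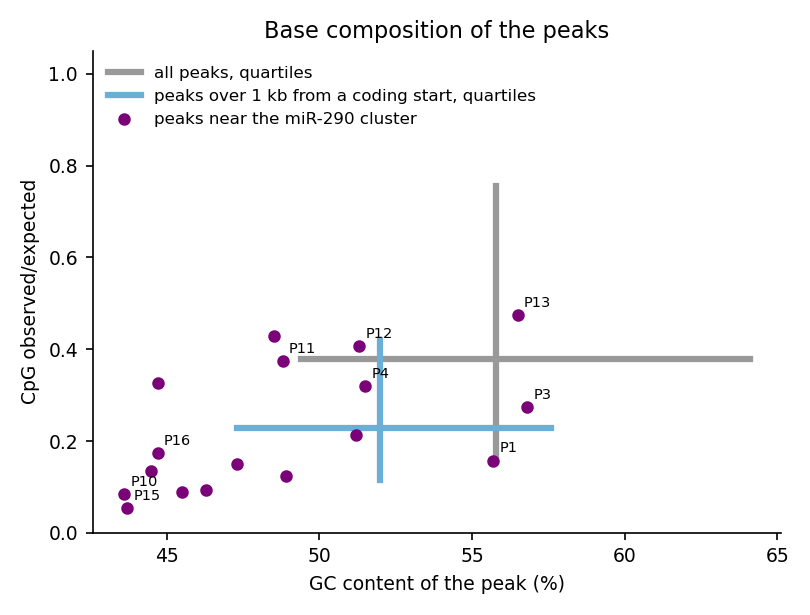
Ratio of observed to expected CpG against GC content in percent for the 17 peaks (purple), with crosses from the lower to the upper quartile that meet at the medians, for all peaks (grey) and for peaks over 1 kb from a protein-coding start (blue). Most of the 17 peaks lie left of both medians, and peaks 3 and 13 lie right of them.

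Sequence stretches of 5 peaks outside gene models are shown because they hold the words of transcription factors and of the core promoter discussed next. All are from the plus strand of GRCm38 (mm10), 5′ to 3′, with the matches in capitals. Peak 11 is shown from chr7:3217652-3217951, peak 10 from chr7:3213564-3213863, peak 4 from chr7:3201326-3201625, and peaks 7 (chr7:3210754-3210894) and 3 (chr7:3194147-3194382) whole. Capitals mark AAGGTCA and TATATAA in peak 11, TTGTAATGC and ATGCAAAT in peak 10, AACAATG and TTCCTGGAA in peak 4, CTTTGAA in peak 7 and GGGCGG in peak 3.
Peak 11: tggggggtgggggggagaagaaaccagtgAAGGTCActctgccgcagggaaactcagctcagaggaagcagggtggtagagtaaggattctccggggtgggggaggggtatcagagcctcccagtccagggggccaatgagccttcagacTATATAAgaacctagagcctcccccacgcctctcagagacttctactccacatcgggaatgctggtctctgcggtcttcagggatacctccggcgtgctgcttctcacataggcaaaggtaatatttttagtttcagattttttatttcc
Peak 10: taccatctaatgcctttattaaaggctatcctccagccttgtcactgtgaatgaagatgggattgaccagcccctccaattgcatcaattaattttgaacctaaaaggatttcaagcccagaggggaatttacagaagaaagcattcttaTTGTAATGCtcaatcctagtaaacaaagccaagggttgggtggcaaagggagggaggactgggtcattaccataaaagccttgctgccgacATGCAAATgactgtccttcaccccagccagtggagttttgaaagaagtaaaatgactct
Peak 4: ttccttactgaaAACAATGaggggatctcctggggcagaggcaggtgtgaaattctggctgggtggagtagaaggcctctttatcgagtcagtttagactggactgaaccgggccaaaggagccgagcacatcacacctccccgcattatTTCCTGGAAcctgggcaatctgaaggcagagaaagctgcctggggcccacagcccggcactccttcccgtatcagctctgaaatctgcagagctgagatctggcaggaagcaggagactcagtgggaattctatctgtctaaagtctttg
Peak 7: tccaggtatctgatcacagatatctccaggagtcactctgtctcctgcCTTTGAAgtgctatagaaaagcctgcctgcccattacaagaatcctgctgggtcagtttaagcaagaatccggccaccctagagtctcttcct
Peak 3: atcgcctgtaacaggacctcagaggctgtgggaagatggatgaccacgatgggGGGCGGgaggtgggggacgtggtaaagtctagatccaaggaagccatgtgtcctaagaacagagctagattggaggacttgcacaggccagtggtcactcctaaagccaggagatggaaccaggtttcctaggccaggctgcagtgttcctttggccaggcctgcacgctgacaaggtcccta

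Words of pluripotency factors occurred in 0 to 2 of the peaks each. In all, 11 words were searched on both strands, none of which contains another, and 9 of the 17 peaks (52.9%) held none of them, against 38.6% of the list and 44.5% of the peaks far from protein-coding starts. Peak 10, 5 kb upstream, held the octamer ATGCAAAT, the element of Oct4 and other POU factors. This 1 match is 5.88% of the peaks, against 3.48% in the list. It was also the peak with GCATNACAA, the inner part of the joint Oct4 and Sox2 element, which 2.39% of all peaks held, as TTGTAATGC on the opposite strand. Peak 4 held the Sox word CATTGTT (4.38% of the list) and the Stat3 word TTCCNGGAA (1.25%), for the factor that leukemia inhibitory factor activates. The half-site AAGGTCA of Esrrb and related nuclear receptors was in 2 peaks (9.44% of the list), peak 11 with 2 copies and peak 16 with 1. The Tcf word TTCAAAG was in peaks 7 and 16 (6.13% of the list), and Tcf factors are the endpoint of the WNT signal that CHIR99021 mimics. No peak held the Klf word GGGTGTGG (5.81% of the list) or the E-box CACGTG (6.99%). Of the 17 peaks, 16 lay far from protein-coding starts, as did 17700 of the 26496 peaks in the list. Among all such peaks the octamer was in 4.55%, GCATNACAA in 3.32%, CATTGTT in 5.67%, TTCCNGGAA in 1.25% and AAGGTCA in 12.4%. TTCAAAG was in 7.86%, GGGTGTGG in 6.52% and CACGTG in 5.04%. The peaks near the cluster were also wider (median 394 bp, against 223 bp in the list), which leaves more sequence to hold a word. Each count at the cluster is 0 to 2 of 17, too few to set the locus apart from either group.

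Words of promoters were also in few peaks. The GC box GGGCGG was in 2 of the 17 peaks, peaks 3 and 6 (11.8%), against 33.9% of the list and 18.9% of the peaks far from protein-coding starts. The TATA word TATAAA was in 3 peaks, 10, 14 and 16 (17.6%), against 7.15% of the list and 8.77% of the peaks far from protein-coding starts. In the central 150 bp, which sets aside the greater width of the peaks near the cluster, TATAAA was in 0 of the 17, against 3.85% of the list. The word CCACNAGG, part of the Ctcf motif, was in peak 16 (6.71% of the list). Peak 11, upstream of the first hairpin, held the related word TATATAA at 3217802 to 3217808, 0.8 kb before Mir290a. This word was added after the sequence had been read, and 1.36% of all peaks held it. The match is a description of these letters and gives no start site.

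Among microRNA loci, the cluster lay near the top by number of peaks. The 2202 microRNA genes of the annotation were joined across gaps of up to 10 kb into 1802 loci, and 61.9% of these had at least 1 peak within 50 kb, with a median of 1 and an upper quartile of 3. Loci with 17 or more peaks numbered 11 (0.61%), and 99.39% had fewer (95% Clopper-Pearson interval 98.91 to 99.69%, counting error only). That interval treats the loci as independent draws, although they are the whole annotation and their windows can overlap. It therefore gives no error of the cluster's rank and serves only as a yardstick for other settings. The cluster shared rank 10 with Mir1195 on chromosome 17. The loci above it were single or paired models named Gm44297, n-TStga1, Gm44394, Gm44454, Gm44456 and Mir1983 on chromosome 13, Gm24158 and Mir6927 on chromosome 11, and Gm22707, elsewhere on chromosome 7. Several of these share peaks, since the 11 loci made 7 separate regions. The number of protein-coding genes that started within the window ran from 5 to 16 at 6 of these loci and was 0 or 1 at Gm22707, Gm44456 and Mir1983, against 2 at the cluster. Among the 249 loci with 2 such starts the median was 2 peaks and none had more than the 17 of the cluster. Of the loci ranked above the cluster, Gm44297, n-TStga1 and Gm44394 lay within the run of 40 peaks over histone genes.

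**Figure D4:**
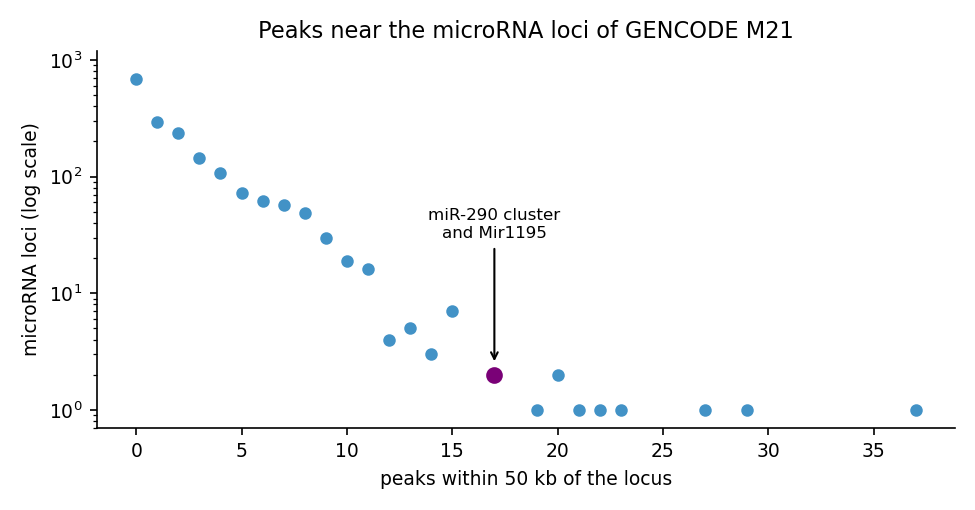
Number of microRNA loci on a log scale (points) by the number of peaks within 50 kb, for the 1802 loci of the annotation. The purple point stands for the 2 loci with 17 peaks, the miR-290 cluster and Mir1195, and 686 loci have none.

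Peaks far from protein-coding starts placed the cluster higher still. Of the 26496 peaks in the list, 17700 lay over 1 kb from any such start. The cluster had 16 of these, a number that 7 loci (0.388%) reached or passed, and shared rank 5. The loci with more were Gm44456 (20), and Gm44297, Mir1983 and Gm22707 (19 each). Near-identical copies were found for 11 of the 19 peaks at Gm22707, 5 of 37 at Gm44297, 2 of 20 at Mir1983, 1 of 21 at Gm44456 and 0 of 17 at the cluster. Such copies were found for 5.94% of all peaks.

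The 14 other microRNA loci chosen for comparison had fewer peaks than the cluster, 0 to 11. Their expression in these cells was not measured here. The Mir302 locus, which shares the seed AAGUGCU, had 2 peaks within 50 kb. The locus of Mir17 on chromosome 14 and that of Mir106a on chromosome X, which belong to families with related seeds and drive proliferation, had 2 each, and the locus of Mir106b had 6. Higher numbers were found at Mir200b (11), of the family that maintains epithelial identity, at the imprinted locus with Mir127 (10), and at Mir182 (9). Mirlet7g, of the let-7 family that opposes the stem cell state, had 9, Mir9-2 had 8 and Mir124a-1 had 7, both known from neurons. Mir21a had 1, and Mir122 of the liver, Mir1a-1 of muscle and Mir297-1 had 0. Apart from the miR-290 cluster, no hairpin of these 14 loci shared a base with a peak.

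Protein-coding pluripotency loci had 9 to 14 peaks in the same window. Within 50 kb of the start of Mir290a there were 17 peaks, a number that 0.451% of the 21938 protein-coding gene starts reached. There were 14 peaks at Nanog, 13 at Pou5f1, which encodes Oct4, and 9 at Sox2. The peaks covered 7312 bp at the miR-290 cluster, 4818 bp at Nanog, 4044 bp at Pou5f1 and 3170 bp at Sox2. Their median widths were 394, 229.5, 295 and 333 bp in the same order. The longest run of peaks with gaps of up to 10 kb had 15 peaks at the cluster, 10 at Pou5f1 and 6 at both Nanog and Sox2. Within 20 kb the cluster had 13 peaks, Pou5f1 12, Sox2 9 and Nanog 6, and within 100 kb Nanog had the most, with 27 against 22 at the cluster. With 1 list and no replicate values, the differences between these loci carry no test.

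**Figure D5:**
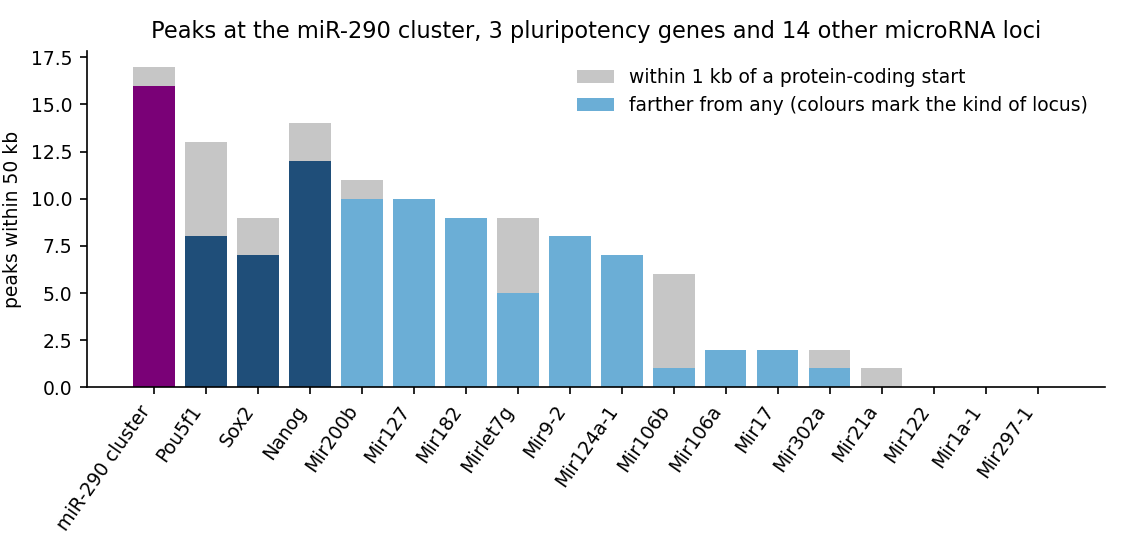
Peaks within 50 kb at the miR-290 cluster (purple), Pou5f1, Sox2 and Nanog (dark blue) and 14 other microRNA loci (light blue), where the coloured part counts peaks over 1 kb from any protein-coding start and the grey part the rest. The bar of the cluster reaches 17, and those of the other 14 microRNA loci reach 0 to 11.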

How the data were processed

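ALaP-seq was run on 4 samples, 2 given hydrogen peroxide for the labelling and 2 negative controls without it. Per the series' design text, the authors trimmed reads with Trimmomatic, mapped them with bowtie2 2.3.5.1 to repeat-masked mm10 and used bedtools to drop blacklisted and greylisted regions. How peaks were called and merged is not given in the sources used here. Chromosome, start and end are the only columns the authors deposited, without height or count, so depth is unknown. Signal tracks were not analysed here.

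Peaks were joined to GENCODE M21 and the GRCm38.p6 genome, and no peak passed a chromosome end. Distances in bp and the window counts used the nearest edges of peak and gene. Positions of peaks in kb upstream or downstream of the start of Mir290a are those of peak midpoints. A gene start is the 5′ end of its model, 1 per gene. Near-identical copies of the central 150 bp were sought with minimap2 2.31-r1302 (95% identity over 80% of the query). Counting, joining and word search were tested on simulated data. Mature strands were matched by symbol to RefSeq's table, which held entries for all 9 genes. Genes named are the 4 members, all other genes of their locus and window, fixed comparison loci and the 10 microRNA loci with the most peaks. Outside this rule, Myadm and some genes of the other long runs were also named. Alternatives were other distances, joins and peak subsets. The members and lists were chosen with earlier results of these data known.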

Additional observations from a re-analysis of the deposited data

How the results depend on the processing

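No paired analysis was possible because no result comes from a test and the merged list has no value per sample, so no replicate could be left out either. Of 32 alternatives, 22 stayed within 1.5 times a count or within the interval of a share. Some of the 22 could hardly move, so the tally is no measure of robustness. No peak of the cluster had a near-identical copy to remove from its count, and the Klf and E-box words were already in 0 whole peaks. The number of peaks was 13 within 20 kb and 22 within 100 kb, 14 with only peaks at least as wide as the list's median, 13 with peaks less than 500 bp apart counted once, and 17 by midpoint or without near-identical copies. Chosen after seeing the data, the count of peaks over 1 kb from a protein-coding start was 16. The share of microRNA loci with fewer peaks than the cluster fell to 98.83% within 100 kb (rank 18), and in the other settings ran from 99.35 to 99.61%; with only genes named Mir, an alternative also added after seeing the data, the cluster had rank 3 of 901 loci. The share of protein-coding starts with fewer peaks than the cluster start was 99.55%, 99.85% within 20 kb and 98.84% within 100 kb. In the central 150 bp of the peaks, which removes most of the searched sequence, the octamer and the words of Sox, Esrrb and Ctcf, as well as both TATA words, were in 0 peaks and the Tcf word in 1, while the inner Oct4 and Sox2 element and the Stat3 word stayed at 1 and the GC box at 2. The list's lack of heights and replicates, and the mask used in mapping, limit every count.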
